A study of Mus musculus with 2 samples.

Results

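The cells described here were the 55 day 5 cells of mouse intestinal organoids with the most RNA of Clu and 4 companion genes. They were chosen by a score, the mean of the deposited log2 values of Clu, Ly6a, Msln, Anxa1 and Anxa3, and the 55 highest scores made up 5.16% of the 1065 day 5 cells and stood among 1863 cells in the whole series. Organoids are epithelial cultures that grow from intestinal cells. The labels give wild type, strain C57BL/6 and an age of 10 weeks, read here as that of the mice and not of the cultures. The series holds 1 droplet library from day 3, with 798 cells, and 1 from day 5. Both cultures were kept in ENR, a medium with EGF, Noggin and R-spondin. Until day 3 this held Wnt3a-conditioned medium (20%) and Y-27632 (10 µM), which inhibits ROCK, and until day 1 also CHIR99021 (3 µM), which inhibits GSK3B. From day 3 to day 5 the cultures had ENR alone. Day, medium and library therefore cannot be told apart, and with 1 library per day there are no replicates and no tests. Intervals below are 95% intervals for counting error only.

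Clusterin, the product of Clu, is a secreted chaperone, and cells with much of it appear in injured intestinal epithelium. Ly6a encodes the surface protein Sca-1, Msln the surface glycoprotein mesothelin, and Anxa1 and Anxa3 encode annexins, which bind membrane phospholipids when calcium is present. Genes of this kind are known from the fetal gut and from adult epithelium under repair, a state that single cells also pass through when they found an organoid. The state is known to recede as crypts with Lgr5 stem cells and Paneth cells form.

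Most RNA of these genes at day 5 sat in few cells. The 55 cells held 84.6% of all day 5 UMIs (unique molecular identifiers, each standing for 1 captured transcript) of the 5 genes, and 883 day 5 cells had a score of 0. Clu lies at chr14:65968483-65981547 on build GRCm38 and had 361 UMIs at day 5, of which 87.3% were in the chosen cells. Per chosen cell, Clu had at most 49 UMIs and a median of 2, and 47 of the 55 cells had at least 1. Msln, at chr17:25748613-25754378, reached 63 UMIs in a cell with a median of 1, and 29 cells had a UMI of it. Anxa3, at chr5:96793339-96845966, was found in 35 cells with a median of 1 and a maximum of 24 UMIs. Ly6a, at chr15:74994877-74998031, was found in 19 cells and reached 29 UMIs. Anxa1, at chr19:20373428-20390944, was found in 8 cells, and 1 cell held 71.1% of its 45 UMIs. All 5 are protein-coding genes. These values chose the cells and are given as a description.

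The score fell off steeply from the first cell to the last. Its highest value was 3.96, its median 0.859 and its lowest 0.466 on the scale of the deposited log2 values. The first cell had 146 UMIs of the 5 genes, and the median of the 55 cells was 5. Of these cells, 4 had UMIs of all 5 genes, 5 had 4 of them, 13 had 3, 26 had 2 and 7 had 1. At the edge of the choice, the last 3 cells taken scored 0.492, 0.483 and 0.466 with 4, 4 and 3 UMIs, and the next 3 cells scored 0.456, 0.452 and 0.451 with 2 UMIs each. In all, 24 of the 55 cells rested on 4 or fewer UMIs and 18 on 10 or more.

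**Figure D1:**
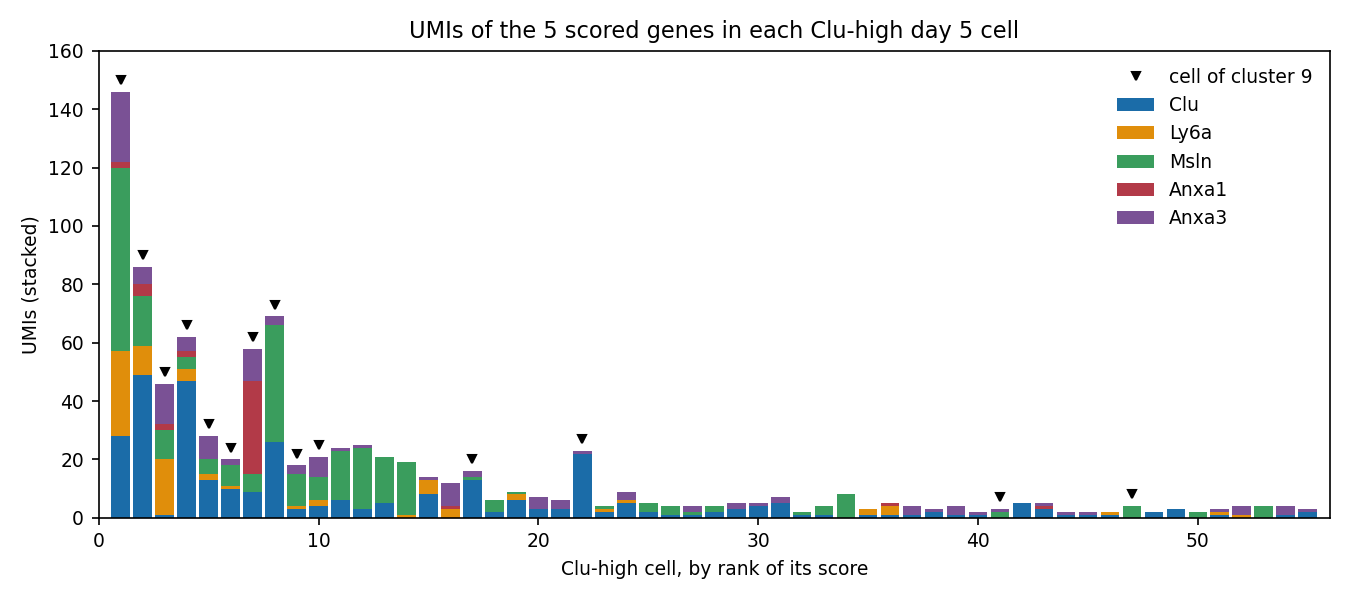
Stacked UMIs of Clu, Ly6a, Msln, Anxa1 and Anxa3 (vertical axis) in each of the 55 chosen day 5 cells, ordered by score rank (horizontal axis). Triangles mark the 14 cells of cluster 9, which hold the 10 highest scores, and the tallest bar is 146 UMIs.

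The name Clu-high was thus met unevenly, since 8 chosen cells had no Clu UMI. After every cell was thinned at random to 6700 UMIs, which left out no cell, 63.6% of the chosen cells (35 of 55, 49.6 to 76.2) still had a Clu UMI, against 85.5% before thinning. Among the Paneth-like day 5 cells, cluster 8, thinned alike, 5.26% had a Clu UMI (2 of 38, 0.644 to 17.8). Their median depth was 16603 UMIs before thinning. In cluster 6, which like cluster 8 held no chosen cell, the share was 1.03% (1 of 97, 0.0261 to 5.61). Whether these UMIs came from free RNA was not tested. The comparison cells of like depth had a Clu UMI in 3.64% (1.58 to 7.04) thinned and 7.27% unthinned. Across all day 5 cells, thinned, Msln was found in 28.1% of the 57 cells with a Clu UMI and in 1.69% of the 1008 without, and Anxa3 in 28.1% and 2.68%. Ly6a was found in 8.77% and 0.694% of the same cells.

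Comparison cells were set by depth, since the chance of catching a UMI grows with it. For each chosen cell the 4 unused day 5 cells nearest in total UMIs were taken, which gave 220 cells. The chosen cells had a median of 18325 UMIs (8468 to 47476), the matched cells 18354, and all other day 5 cells 13314.5. Detected genes had medians of 3586 in chosen and 3382 in matched cells, and mitochondrial UMIs medians of 5.95% and 5.64%. A doublet caller marked none of the chosen and 5 of the matched cells. Levels are in CPM, the summed UMIs of a gene per 1000000 summed UMIs of the group. Calling a gene higher or lower took a 1.5-fold difference, separate intervals and the same fold once its richest cell was left out. Of 10396 genes with at least 10 UMIs in both groups together, 613 (5.9%) were called higher in the chosen cells and 103 (0.991%) lower. With TMM scaling, which shifts every log2 ratio by -0.20, these counts were 338 and 230, so higher genes made up 85.6% of calls by CPM and 59.5% by TMM. The median log2 ratio of all genes was 0.19 by CPM and -0.01 by TMM. The cells were picked for 5 genes that vary together with others, so each difference below describes the picked cells.

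Where the chosen cells sat among the day 5 cells was read from clusters made without the 5 genes. Cluster 9, the smallest of 9 clusters with 19 cells, held 14 chosen cells, a share of 73.7% (48.8 to 90.9). Its leading genes over all other day 5 cells were Ly6c1, Crip2, Anxa1, Cwh43, Ly6a, Sptssb, Clu, Bmp8b, Il1rn and Msln. Of these, Anxa1, Ly6a, Clu and Msln belong to the score that chose 14 of its cells, so their lead follows from the choice. The first 10 cells by score were all in cluster 9, and so were all 9 cells with UMIs of 4 or 5 of the 5 genes. These 14 cells alone held 58.6% of the day 5 UMIs of the 5 genes. The other 41 chosen cells were spread over 6 clusters, where they made up between 2.22% (cluster 5) and 7.02% (cluster 7) of the cells. Cluster 1, led by Slc5a4b, Ggt1 and other brush border and transport genes, held 12 of them. Cluster 2, led by the mitotic genes Aspm and Ube2c, held 11, and cluster 3 held 6. The Enterocyte-like cluster 4 held 5, the Proliferation-like cluster 7 held 4 and cluster 5, led by Depp1 and Edn2, held 3. None was found among the 97 cells of cluster 6 or the 38 Paneth-like cells of cluster 8, which by the exact intervals allows shares of up to 3.73% and 9.25%.

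**Figure D2:**
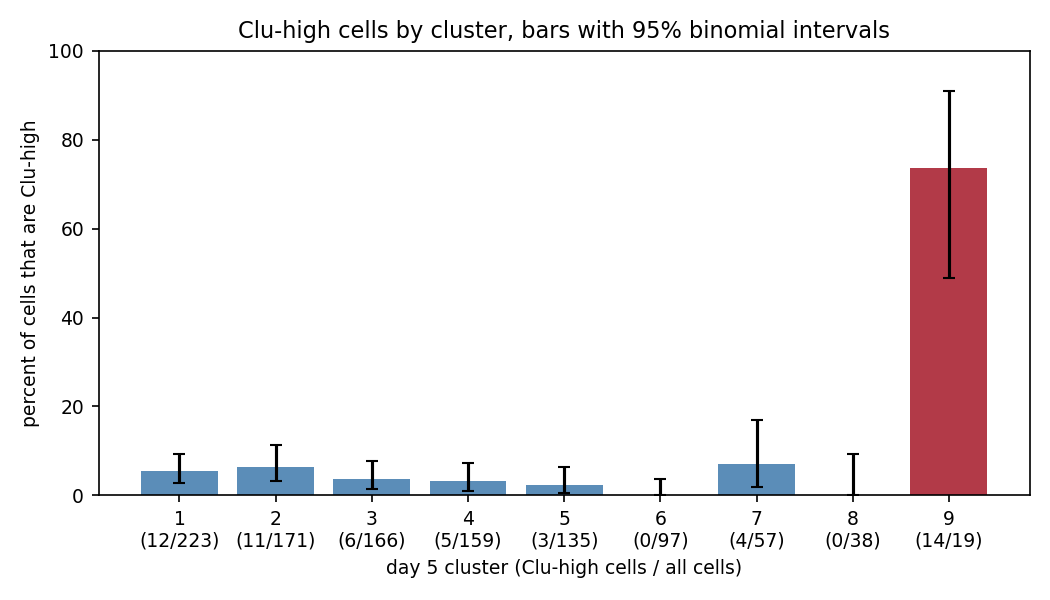
Percent of the cells of each day 5 cluster that are among the 55 chosen cells, with exact binomial 95% intervals. Cluster 9 stands at 73.7%, and the other clusters lie between 0 and 7.02%.

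Whether cluster 9 stands alone depended on the settings. At a lower clustering resolution its 14 chosen cells lay together in a cluster of 194 cells, and without the fetal-like genes in a cluster of 158 cells. The highest share of chosen cells in any cluster was then 10.3% and 9.49%. The 2 sets of chosen cells also differed in depth and in the values that chose them: the 14 cells had a median of 28155.5 UMIs and of 25.5 UMIs of the 5 genes, the 41 others 16688 and 4. Cluster 9 was made with the genes described below, so the values of its cells are a description of how it was found. The 41 cells were compared both with their depth-matched cells and with matched cells of their own clusters.

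Fetal-like genes outside the score were higher in the chosen cells. The list holds 25 genes known from fetal and regenerating epithelium, of which 17 had enough UMIs, and 15 of these 17 were called higher and none lower, with a median log2 ratio of 2.19 against 0.19 for all genes. Since the limit of 10 UMIs covers both groups together, genes such as Sprr1a passed it through the chosen cells and had to differ. With the limit set on the matched cells alone, 13 genes were left, of which 11 were called higher, with a median of 1.89, where 5.58% of 10005 genes were called higher. In the 14 cells of cluster 9, 17 of 17 were called higher with a median of 3.15, where 6.29% of 8629 genes were called higher and 2.24% lower (12 of 12 with the limit on the matched cells alone). In the 41 other cells 9 of 14 were called higher with a median of 1.15, where 3.36% of 9801 genes were higher and 0.684% lower (7 of 12 with that limit). Against cells of their own clusters 7 of 14 were called higher with a median of 1.26, where 2.09% of 9731 genes were higher and 0.575% lower (7 of 14 with that limit). Those 7 were S100a6, S100a11, Lgals3, Anxa5, Krt7, F3 and Tnfrsf12a.

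S100a6 encodes a calcium-binding protein of growing and stressed epithelium. Per cell it had 2 to 160 UMIs with a median of 85.5 in the 14 cells of cluster 9, 0 to 104 with a median of 10 in the 41 others, and 0 to 37 with a median of 1 in the matched cells. By CPM within the cell, 11 of the 14 and 7 of the 41 stood above the highest matched cell, and the rest overlapped with the matched cells. S100a6 summed to 2988 CPM (2817 to 3166) in cluster 9, 1033 (962 to 1107) in the others and 158 (147 to 170) in matched cells. For all chosen cells the log2 ratio was 3.41 (3.28 to 3.53), and for the 41 cells against their own clusters it was 2.87. Thinned to equal depth, S100a6 was found in 89.1% of chosen cells (77.7 to 95.9) and 44.1% of matched cells (37.4 to 50.9), and unthinned in 92.7% and 65.9%.

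S100a11, a close relative of S100a6, ran from 4 to 143 UMIs (median 33.5) in cluster 9, from 0 to 37 (median 5) in the others and from 0 to 17 (median 3) in matched cells. It summed to 1535 CPM (1413 to 1664), 444 (398 to 493) and 176 (164 to 189), so the groups overlapped cell by cell and their sums did not.

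Krt7, a keratin of simple duct-like epithelia, was found in every cell of cluster 9 with 2 to 38 UMIs and a median of 9.5. In the 41 others it ran from 0 to 17 UMIs (median 2) and in matched cells from 0 to 9 (median 1). Krt7 summed to 411 CPM (349 to 481), 144 (118.5 to 173) and 64.5 (57.4 to 72.3). Krt19, a keratin of most gut epithelial cells, was at 2362, 1475 and 1176 CPM and was called higher in cluster 9 but not in the 55 cells as a whole. Among 6 keratins measured, 3 were called higher where 5.9% of all genes were, the third being Krt20 beside Krt7 and Krt23.

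Lgals3 and Anxa5 were close to absent from the comparison cells. Lgals3, which encodes the sugar-binding galectin-3, had 46 UMIs in 16 chosen cells and 7 UMIs in the 220 matched cells, none of which held more than 1. It passed the limit of 10 UMIs through the chosen cells and had to differ. Its levels were 70.7 CPM (46.6 to 103) in cluster 9, 24.7 (14.8 to 38.5) in the others and 1.53 (0.613 to 3.14) in matched cells. Anxa5, an annexin outside the score, was at 102 CPM (72.6 to 140), 20.8 (11.9 to 33.7) and 3.70 (2.16 to 5.93). Of 7 measured annexins outside the score 4 were called higher over all chosen cells, beside 5.9% of all genes. These were Anxa5, Anxa10, Anxa2 and Anxa13, while Anxa11 and Anxa4 were not called, at log2 ratios of -0.08 and 0.15. With the limit on the matched cells alone 3 of 6 annexins were called, where 5.58% of all genes were. A called annexin thus passed the first limit through the chosen cells and had to differ.

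Areg, which encodes the EGF receptor ligand amphiregulin, had up to 38 UMIs in a cell of cluster 9, with a median of 1 and no UMI in 5 of the 14 cells. Areg was at 283 CPM (232 to 342) there, at 23.4 (13.8 to 36.9) in the 41 others and at 6.97 (4.77 to 9.84) in matched cells. Among the 41 cells 1 cell held 55.6% of the Areg UMIs, and against cells of their own clusters the gene was not called, at a log2 ratio of 0.58. Tnfrsf12a, the receptor of the cytokine TWEAK, was found in all 14 cells of cluster 9 and in 13 of the others, at 162 (124 to 208), 38.9 (26.3 to 55.6) and 18.1 CPM (14.4 to 22.4). F3, tissue factor of blood clotting, was at 62.8, 37.6 and 12.4 CPM, and Cldn4, a tight junction claudin, at 120, 25.9 and 12.0 CPM. Of the Cldn4 UMIs in the 41 cells, 80% lay in 1 cell.

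Single cells made up most of other sums. Sprr1a, a cornified envelope gene of stressed epithelia, had 48 UMIs in chosen cells, 87.5% of them in 1 cell of cluster 9, none in the 41 others and 1 in matched cells. That cell, the deepest at 47476 UMIs and the seventh by score, also held 32 of the 45 Anxa1 UMIs and 50 of the 73 Mdm2 UMIs. Sprr2a3 was spread more evenly, over 6 cells of cluster 9, at 47.1 CPM (27.9 to 74.5) there and 0.654 (0.135 to 1.91) in matched cells. Like Sprr1a, it passed the limit of 10 UMIs through the chosen cells.

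**Figure D3:**
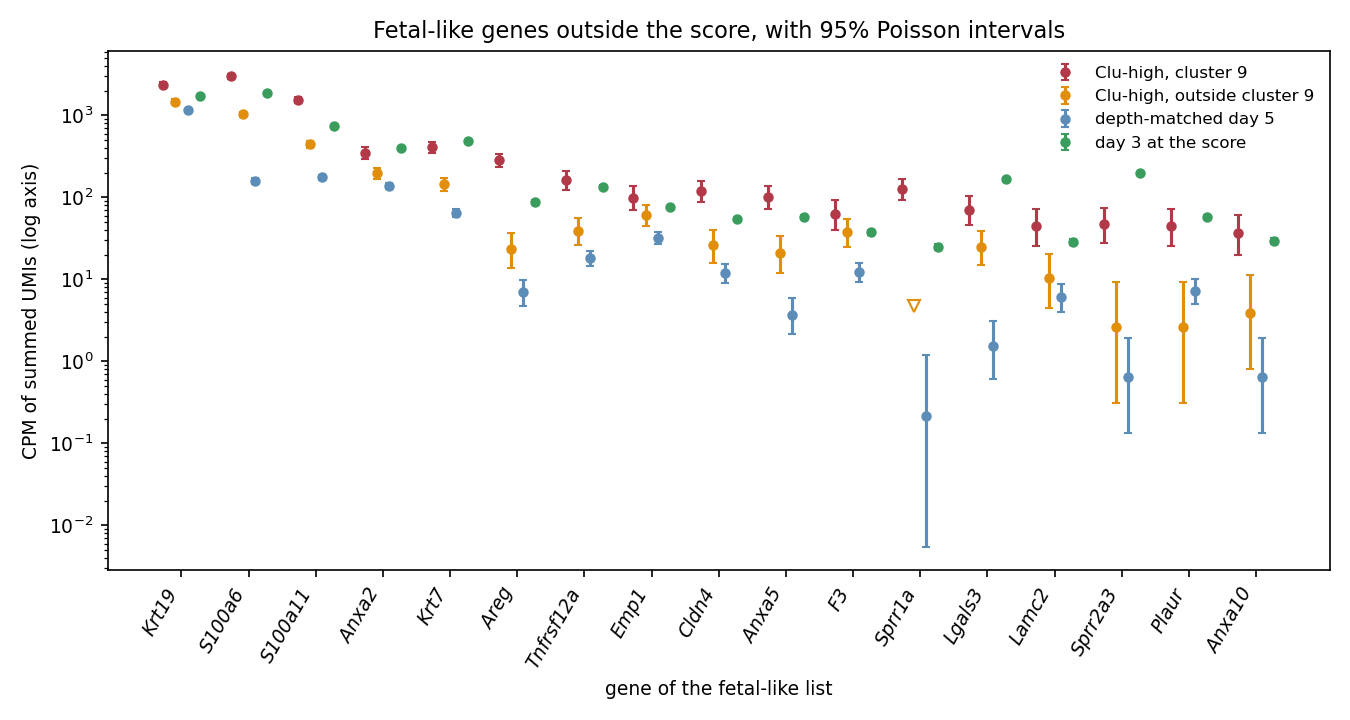
Levels of the 17 measured fetal-like genes outside the score in CPM of summed UMIs (log axis), for 14 chosen cells of cluster 9, 41 chosen cells outside it, 220 depth-matched day 5 cells and 569 day 3 cells at or above the lowest chosen score. Bars are Poisson 95% intervals for counting error, the open triangle is the upper bound of a level of 0, and S100a6 stands at 2988, 1033, 158 and 1899 CPM in this order.

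Counted cell by cell, the fetal-like genes showed the same order. Their summed level had a median of 7725 CPM (2172 to 22239) in the 14 cells of cluster 9, 3070 (1008 to 15823) in the 41 others and 1704 (437 to 4965) in matched cells. Krt19 and S100a6, with levels given above, make up a large part of these sums, which therefore say little of the other genes. The cell at 15823 CPM had 104 S100a6 UMIs among 9480 UMIs in all. Of the chosen cells, 51 of 55 stood above the median of the matched cells. Above the 95th percentile of the matched cells were 13 of the 14 and 15 of the 41. After thinning, a cell of cluster 9 had UMIs of a median of 8.5 fetal-like genes (5 to 16), the others of 5 (2 to 8) and matched cells of 3 (1 to 8). In each of the 6 other clusters with chosen cells their median sum was above that of the remaining cells, from 2524 against 2011 CPM in cluster 3 to 5267 against 1962 in cluster 5, which holds 3 of them. In each of these except cluster 3 the chosen cells were also deeper than the rest, for example 15342 against 9490 UMIs in cluster 1, and the part of depth in these medians was not tested.

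**Figure D4:**
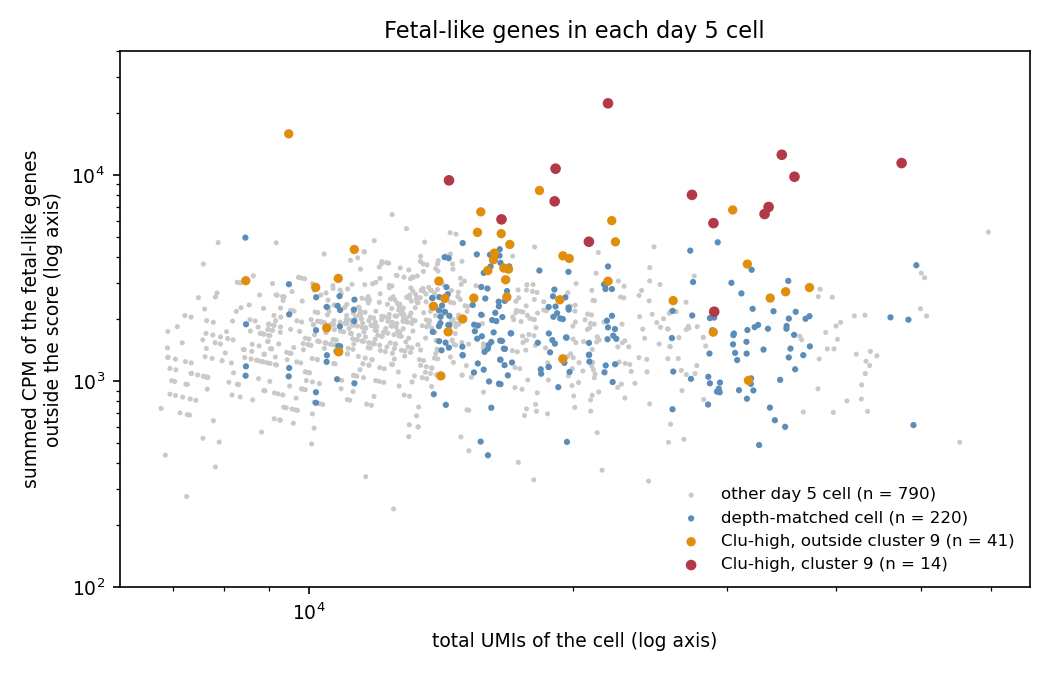
Summed CPM of the fetal-like genes outside the score (vertical, log axis) against total UMIs (horizontal, log axis) for each of the 1065 day 5 cells. The 14 chosen cells of cluster 9 run from 2172 to 22239 CPM, the 41 other chosen cells from 1008 to 15823, and the depth-matched cells from 437 to 4965. Krt19 and S100a6 make up a large part of these sums.

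Genes that led by ratio outside the list included an inhibitor of inflammation and detoxifying enzymes. Il1rn, the antagonist of the interleukin-1 receptor, had the highest ratio of the 15 genes ranked under the limits on level and detection, at 112.6 CPM (81.5 to 152) in cluster 9, 19.5 (10.9 to 32.1) in the others and 2.83 (1.51 to 4.84) in matched cells. It was found in 9 of the 14 cells, 5 of the 41 and 8 of the 220. Gsta4 and Gsta1 encode glutathione transferases, which conjugate reactive compounds. Gsta4 was at 1563 CPM (1440 to 1694), 572 (520 to 628) and 190 (178 to 203). Gsta1 was at 2446, 1811 and 442 CPM and was called higher in the 41 cells against their own clusters, at a log2 ratio of 1.07. Gpx2, another antioxidant enzyme, was not called, at 204, 123 and 177 CPM.

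Vnn1, a pantetheinase of the cell surface, and Pdzk1ip1, a small membrane protein, were each found in 10 of the 14 cells of cluster 9. Vnn1 was at 152 CPM (115 to 196) there, 36.3 (24.1 to 52.5) in the others and 10.5 (7.71 to 13.9) in matched cells. Pdzk1ip1 was at 152 (115 to 196), 27.2 (16.9 to 41.6) and 8.28 (5.86 to 11.4). Both were called higher in the 41 cells against cells of their own clusters, at log2 ratios of 1.27 and 1.64. Pnliprp2, a pancreatic lipase relative that is also a Paneth marker, was at 94.3, 74.0 and 15.3 CPM and was called higher in each of these comparisons.

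Among cytokine genes, the endothelin gene Edn1 was found in 35 of the 55 chosen cells and 79 of the 220 matched cells. Of 7 measured genes of NF-kB response and epithelial cytokines, 4 were called higher (Ccl20, Il18, Cxcl16 and Edn1), beside 5.9% of all genes. The median log2 ratio of the 7 was 1.79. With the limit on the matched cells alone 4 of 6 were called, where 5.58% of all genes were. In the 41 cells against their own clusters 2 of 7 were called (Cxcl16 and Edn1), beside 2.09% of all genes. Edn1, named after its values were seen, had a median of 16 UMIs (0 to 46) in cluster 9, 1 (0 to 24) in the others and 0 (0 to 48) in matched cells. It summed to 689 CPM (608 to 777), 196 (166 to 230) and 83.2 (75.1 to 92.0), and 2 of the 14 and 1 of the 41 cells stood above the highest matched cell. Cxcl16, a membrane-bound chemokine, was at 128 CPM (94.9 to 170), 41.5 (28.4 to 58.6) and 11.5 (8.65 to 15.1). Ccl20, a chemokine that draws dendritic cells and lymphocytes, was at 304 CPM in cluster 9, where 65.5% of its UMIs came from 1 cell and 10 of 14 cells had none. It was at 41.5 CPM in the others and 24.0 in matched cells.

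Among 10 measured targets of p53, the factor that answers DNA damage, 6 were called higher over all chosen cells, where 5.9% of all genes were (Mdm2, Cdkn1a, Bax, Ccng1, Phlda3 and Zmat3), with a median log2 ratio of 1.21. In cluster 9 the count was 7 of 10 beside 6.29% of all genes, with a median of 1.96. Some of these genes passed the limit of 10 UMIs through the chosen cells. With the limit on the matched cells alone 5 of 7 were called in cluster 9, where 5.71% of all genes were. In the 41 others it was 0 of 10 against both kinds of comparison cells, which is near the 3.36% and 2.09% of all genes called there, with medians of 0.47 and 0.47. Whether the 2 sets of cells differ was not tested. Without the 5 deepest chosen cells 4 of 10 were called. Cdkn1a, the cell cycle inhibitor p21, had 0 to 25 UMIs (median 3) in cluster 9, 0 to 9 (median 1) in the others and 0 to 9 (median 1) in matched cells. It summed to 225 CPM (180 to 278), 64.9 (48.1 to 85.5) and 47.9 (41.8 to 54.7). Bax, which opens mitochondria in cell death, was at 393 CPM (332 to 461), 162 (135 to 193) and 110 (101 to 120). Mdm2, the ubiquitin ligase of p53, was at 157 CPM in cluster 9, with 83.3% of its UMIs from 1 cell, and at 16.9 and 12.0 in the other groups.

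Of 11 measured actomyosin genes, which build and move the contractile cytoskeleton, 8 were called higher and none lower beside 5.9% of all genes, with a median log2 ratio of 0.83, but TMM scaling left 4. In cluster 9 7 of 11 were called higher, beside 6.29% of all genes. In the others 4 of 11 were called against both kinds of comparison cells, beside 3.36% and 2.09% of all genes. These were Tagln2, Flna, Cnn2 and Myh9, named after their values were seen. Flna, which crosslinks actin, was at 13.1 CPM (4.25 to 30.6) in cluster 9, 16.9 (8.98 to 28.8) in the others and 2.61 (1.35 to 4.57) in matched cells. Cnn2, an actin-binding calponin, was at 36.7, 18.2 and 7.41 CPM, and Cnn3 was not called, at a log2 ratio of -0.16. Lamb3, a laminin chain of the basement membrane, was the 1 of 10 measured matrix and integrin genes called higher over all chosen cells, a share near that of all genes, at 34.0, 25.9 and 11.1 CPM.

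Targets of YAP, the growth regulator tied to gut repair, were called higher in 3 of 9 measured genes over all chosen cells (Nuak2, Ccn1 and Myof), where 5.9% of all genes were. Myof passed the limit on UMIs through the chosen cells and had to differ. With the limit on the matched cells alone 2 of 6 were called, where 5.58% of all genes were. In cluster 9 the counts were 3 of 5 beside 6.29% of all genes and, with that limit, 1 of 2 beside 5.71%. In the 41 others they were 0 of 6 in each comparison, near the 3.36% and 2.09% of all genes, and the difference between the sets was not tested. Ccn1, a secreted matrix protein, was at 126 CPM (92.7 to 167) in cluster 9, 33.7 (22.0 to 49.4) in the others and 24.4 (20.1 to 29.4) in matched cells. Its relative Ccn2 had no UMI in the 55 cells, an interval of 0 to 3.20 CPM, and 1 UMI in the matched cells. Myof, a membrane repair gene, had 17 UMIs in chosen and 1 in matched cells, and 53.8% of those in cluster 9 lay in 1 cell.

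Of 12 measured stem genes 0 were called higher and 2 lower over all chosen cells, Smoc2 and Rgcc, beside 5.9% of all genes higher and 0.991% lower. In cluster 9 Prom1 was called higher and Cdca7 and Smoc2 lower of 11 stem genes, beside 6.29% of all genes higher and 2.24% lower. Their median log2 ratio over the 11 was 0.21 beside 0.23 for all genes. Smoc2, a matrix protein of crypt base cells, was at 34.0 CPM (18.1 to 58.2) in cluster 9, 81.7 (62.8 to 105) in the others and 140 (129 to 151) in matched cells. Lgr5, the receptor that marks crypt base stem cells, was at 7.86 (1.62 to 22.96), 23.4 (13.8 to 36.9) and 23.5 CPM (19.3 to 28.4), so the intervals overlapped. Of 15 proliferation genes 0 were called over all chosen cells, a count near the share of all genes. In cluster 9 5 of 15 were called lower, beside 2.24% of all genes: Mki67, Top2a, Cdk1, Birc5 and Ube2c. Of the 220 matched cells, 59 lay in the mitotic cluster 2 and 20 in the Proliferation-like cluster 7. The 14 cells were not compared with cells of their own cluster, and the part of cycling matched cells in these calls was not tested. Mki67, a protein of cycling nuclei, was found in 2 of the 14 cells, at 7.86 CPM (1.62 to 22.96), and in 16 of the 41, at 80.4 (61.7 to 103), against 66.5 (59.2 to 74.3) in matched cells. Ccnd1, the G1 cyclin D1, was found in all 14 cells of cluster 9, at 233 CPM (187 to 287), and was at 38.9 in the others and 49.7 in matched cells.

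Absorptive genes were called in opposite directions in cluster 9 and in the other chosen cells when set against depth-matched cells. Of 15 measured enterocyte genes 4 were called higher over all 55 cells (Alpi, Anpep, Apoa1 and Krt20), beside 5.9% of all genes, and 2 with TMM scaling. In cluster 9 7 of 14 were called lower and Alpi higher, beside 2.24% of all genes lower and 6.29% higher. The median log2 ratio of these 14 was -0.996. In the 41 others 7 of 15 were called higher beside 3.36% of all genes, with a median of 0.77. Against cells of their own clusters, however, 0 of 15 were called, with a median of 0.09. That count is near the 2.09% of all genes higher and 0.575% lower there. Fabp1, a fatty acid carrier, had a median of 3.5 UMIs in cluster 9 and 12.5 in matched cells, at 655 CPM (576 to 741), 3325 (3198 to 3457) and 2537 (2491 to 2583) in the order used above. Apoa1, an apolipoprotein, was at 306 (253 to 367), 5266 (5106 to 5431) and 1248 (1216 to 1281) CPM. Alpi, the brush border alkaline phosphatase, was at 123 (90.4 to 164), 253 (219 to 291) and 70.6 CPM (63.1 to 78.7).

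Secretory genes were mostly called lower against depth-matched cells, which hold 10 Paneth-like cells of cluster 8 where the chosen cells hold none. Of 10 measured Paneth genes 8 were called lower and 1 higher, and of 11 goblet genes 7 were called lower and 1 higher. Of all genes 0.991% were called lower and 5.9% higher in this comparison. Against cells of their own clusters, the 41 cells had 1 of 6 Paneth genes lower (Defa24) and 1 higher (Pnliprp2), and 1 of 7 goblet genes lower (Spink4) and 1 higher (Guca2a), where 0.575% of all genes were lower and 2.09% higher. The median log2 ratio of the goblet genes was then 0.01. Defa24, a Paneth cell defensin, was at 131 CPM (97.2 to 173) in cluster 9, 63.6 (47.0 to 84.1) in the others and 1825 (1786 to 1865) in matched cells, where the median was 1 UMI and 1 cell held 1899. Zg16, a goblet cell lectin, was at 18.3, 7.79 and 406 CPM, with 57 of 220 matched cells holding a UMI. Tff3, a trefoil peptide of mucus, was at 96.9, 178 and 874 CPM. These directions depended on the number of cells chosen: with the 110 highest scores the log2 ratio was 0.37 for Defa24 and 1.57 for Tff3. Of 6 measured enteroendocrine genes 3 were called lower, beside 0.991% of all genes, and Sst had no UMI in chosen cells. The table holds 8 of 11 tuft markers, 4 of 11 stromal, endothelial and mesothelial markers and 4 of 8 immune markers. Those gave 6, 2 and 1 UMIs in the 55 cells, and the other markers were not analysed here.

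**Figure D5:**
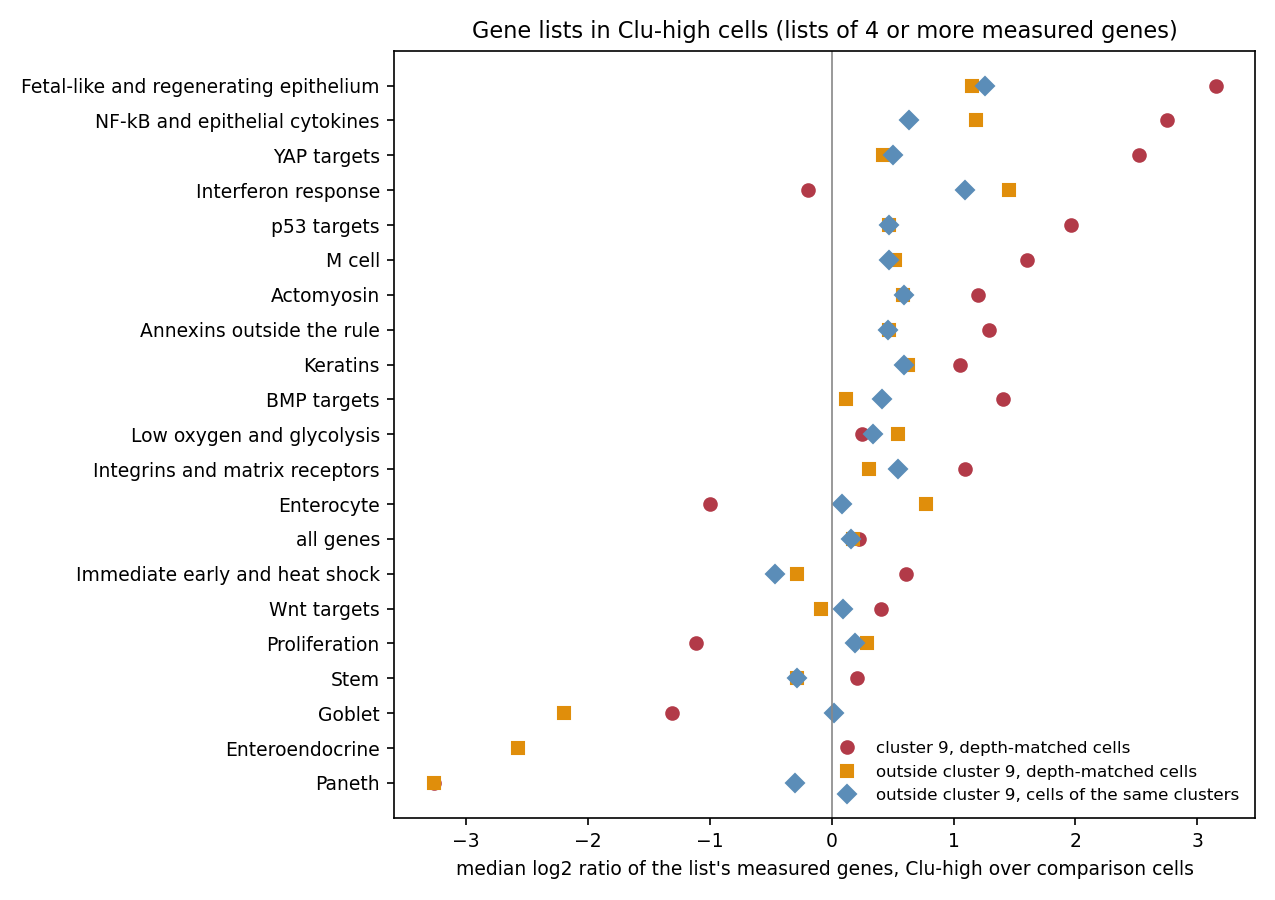
Median log2 ratio of the measured genes of each list (horizontal), Clu-high over comparison cells, for the 14 cells of cluster 9 and for the 41 others against depth-matched cells or matched cells of their own clusters. The fetal-like list stands at 3.15, 1.15 and 1.26 beside all genes at 0.23, 0.17 and 0.16.

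M cell markers, of cells that take up antigen, were called higher in 2 of 4 measured genes, Ccl20 and Pglyrp1, beside 5.9% of all genes. Of the 10 listed markers 8 were in the data. Among these, Spib, Sox8 and Prnp had no UMI in the chosen cells, while the larger group of matched cells lacked only Sox8. Ccl20 was also counted among the cytokine genes above, and 1 cell held 65.5% of its UMIs in cluster 9. Whether the chosen cells include M cells was not tested. Pglyrp1, which binds bacterial cell wall, had a UMI in every chosen cell and was at 770 CPM (684 to 863), 706 (648 to 768) and 296 (281 to 313) in cluster 9, the others and matched cells. Low-oxygen and glycolysis genes were called higher in 3 of 14, beside 5.9% of all genes. For the 41 cells against their own clusters the count was 0 of 14, near the 2.09% of all genes. In the interferon list 3 of 7 were called higher and Ifitm3 lower, beside 5.9% of all genes higher and 0.991% lower. With the limit on the matched cells alone 2 of 5 were higher, where 5.58% of all genes were. The median log2 ratio of this list was 1.29 with the first limit and -0.155 with the second, and Isg15 owed 88.9% of its UMIs in the 41 cells to 1 cell. Of 9 immediate early and heat shock genes 0 were called over all chosen cells, near the share of all genes. In the 41 cells 2 of 8, Atf3 and Jun, were lower in each comparison, beside 0.684% and 0.575% of all genes. Malat1, a nuclear noncoding RNA that can mark damaged or nucleus-rich droplets, was at 11556 CPM (11218 to 11902) in cluster 9, 8345 (8143 to 8552) in the others and 4775 (4712 to 4838) in matched cells. Its part in the differences above was not tested.

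Next to day 3, the chosen cells were few but not outside its range. At or above the lowest chosen score lay 569 of 798 day 3 cells (71.3%, 68.0 to 74.4), at or above the median of the chosen cells 312 (39.1%, 35.7 to 42.6) and at or above the highest 20. Day 3 cells were deeper, with a median of 32063.5 UMIs. The score scales counts by the total UMIs of a cell, but the chance of catching a UMI still grows with depth. Clu had 10538 UMIs at day 3, at 488 CPM (478 to 497) in the 569 cells, against 273 (244 to 305) in the 55 chosen cells, 589 (515 to 671) in the 14 cells of cluster 9 and 117 (93.9 to 143.5) in the 41 others. Msln was at 151, 246, 466 and 136 CPM in the same order and Ly6a at 132, 77.2, 178 and 27.2.

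The 569 day 3 cells had a median score of 0.932, the 55 chosen cells 0.859 and the 14 of cluster 9 a higher one of 2.24, so values are given for all 3 groups in this order. S100a6 was at 1899, 1681 and 2988 CPM, and Krt7 at 487, 233 and 411. Areg was at 89.0, 109 and 283 CPM, Il1rn at 36.0, 50.3 and 112.6 and Edn1 at 137, 359 and 689. The day 3 level of S100a6 thus lay between those of the 55 cells and of cluster 9. It was below both for Areg, Il1rn and Edn1, and for Vnn1, Pdzk1ip1 and Cdkn1a given below. For Krt7, and for Sprr2a3, Lgals3, Ccn2 and Gpx2 given below, the day 3 level was above both. The 14 cells are part of the 55, so these groups are not separate. Sprr2a3 was at 201, 17.4 and 47.1 CPM, Lgals3 at 166, 39.9 and 70.7, and Ccn2 at 19.1, 0 and 0. Gpx2 was at 1305 CPM (1289 to 1320) at day 3, at 150 (129 to 174) in the 55 cells and at 204 (161 to 255) in cluster 9. Vnn1 was at 8.45, 74.6 and 152 CPM, Pdzk1ip1 at 12.8, 68.5 and 152, and Cdkn1a at 91.0, 118 and 225. Summed over the 55 cells, the gut lectin Reg1 was at 4931 CPM (4804 to 5061) against 1.04 (0.651 to 1.57) at day 3, but most cells had few UMIs of it. Its median was 6 UMIs in cluster 9, where 1 cell held 80.4% of them, and 5 in the 41 others, where the highest cell had 574. These values lie side by side without a test, since the libraries differ in day, medium and depth.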

How the data were processed

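Single cells of mouse intestinal organoids were profiled with 10x Genomics 3-prime chemistry, in 1 library per day. UMI counts of 15745 genes were deposited by the authors, together with log2 values of the same cells. The submitters' processing notes name Cell Ranger 1.3.0 and the build mm10. Each of these deposited log2 values equals, within rounding, log2(count / size factor + 1), where the size factor divides the UMIs of a cell by the average over both libraries. How genes and cells were filtered is not given in the sources used here. Symbols were matched for 15681 genes, and positions come from GENCODE M21 on GRCm38. No column name carries a barcode, so barcodes shared by the libraries were not counted.

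Day 5 cells were clustered without the 5 scored genes on 2000 variable genes, 30 principal components and 15 neighbours (Leiden, resolution 1, scanpy 1.11.5, igraph 0.11.9) after scaling to 10000 UMIs. Clusters were named X-like where at least 3 of the 25 leading genes were markers of 1 type and no other type had more in the first 10, and otherwise stayed unnamed. Scrublet called 8 doublets, which were kept. Sums of UMIs gave CPM with exact Poisson intervals and log2 ratios with 0.5 UMI added, and shares have Clopper-Pearson intervals. TMM factors came from edgeR 4.0.16 in R 4.3.3, and Python 3.11.15, numpy 2.4.6, pandas 2.3.3, scipy 1.17.1 and matplotlib 3.10.9 did the rest. The call rule was tested on simulated data.

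Named genes were the 5 scored genes, the 15 highest and 10 lowest called ratios (at least 50 CPM in the higher group, 10 UMIs in the lower group and a UMI in 25% of the higher group's cells, without mitochondrial, ribosomal and predicted genes), all measured fetal-like genes and the 2 highest and 2 lowest genes of the other lists. A further 18 genes, among them Edn1, Ccn1, Ccn2, Gpx2, Reg1, Malat1, Mki67, Lgr5, Cdkn1a, Bax and Fabp1, were added after their values were seen. The cells and the 24 gene lists were chosen with earlier results of these data known.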

Additional observations from a re-analysis of the deposited data

How the results depend on the processing

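No paired analysis was possible because each day has 1 library. Depth limits what can be said of single cells: 24 of the 55 cells rest on 4 or fewer UMIs, and counting intervals say nothing of other cultures. The settings that split cluster 9 from the other cells were chosen after seeing the data, the cause of the changes below was not tested, and the planned setting without shared barcodes was not run because the columns carry none. Of 1311 values of called named genes over 19 settings, 21 changed sign, 323 others left the counting interval of the main ratio and 967 stayed the same. These values include scored genes such as Clu, whose direction was largely fixed by the choice of cells. Differences of the deposited log2 values, on another scale, were compared by direction only. The main counts were 613 higher and 103 lower genes. Higher genes numbered 387 against cells of the same clusters, 338 with TMM factors and 308 at 2-fold, and lower genes 176 against all other day 5 cells, 230 with TMM, 61 for 110 cells and 63 at 2-fold. Only cluster 9 gave 193 lower genes, the 41 other cells 329 higher and 67 lower, and 203 and 56 against their own clusters. Fetal-like genes called higher numbered 9 and 7 in these last 2 settings, and p53 targets 0 and 0, as well as 3 for 110 cells and 2 at 2-fold. TMM left 4 of the 8 actomyosin and 2 of the 4 enterocyte genes called higher. A minimum of 10 UMIs in the comparison cells alone, also added after seeing the data, gave 558 higher and 103 lower genes and 11 fetal-like, 6 p53 and 4 cytokine genes higher. Cytokine genes called numbered 2 for 30 cells, for scores without Msln or from thinned counts and for the 41 cells against their own clusters. With 110 cells the log2 ratio turned to 0.37 for Defa24, 1.27 for Spink4, 1.09 for Defa17, 1.57 for Tff3, 1.20 for Defa26 and 0.52 for Clca1. Without Clu in the score it was 0.76 for Spink4 and 1.06 for Tff3, without Msln 1.14 for Spink4, 0.43 for Defa17, 1.27 for Tff3 and 0.86 for Clca1, and without Anxa3 0.11 for Spink4 and 1.33 for Defa17. Cells of the same clusters gave 0.19 for Clca1 and 0.15 for Ghrl. Apoa1 was at -1.34 in cluster 9 alone, and outside it Ccnd1 was at -0.40, Phlda3 at -0.12 and Depp1 at -0.14, with Ccnd1 at -0.0534 against the same clusters. The highest share of chosen cells in a cluster was 10.3% at resolution 0.5 and 9.49% without fetal-like genes. Unthinned shares of chosen cells with a UMI were 85.5% for Clu, 34.5% for Ly6a and 63.6% for Anxa3. At the median chosen score 39.1% of day 3 cells remained. Of the 55 cells, 39 were also taken without Clu in the score, 50 without Ly6a, 46 without Msln, 55 without Anxa1, 46 without Anxa3 and 39 from thinned counts.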

Other observations

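The 5 cells of cluster 9 that the score did not choose had scores from 0 to 0.354, and 2 of them are among the depth-matched cells. Their median depth was 18322 UMIs and they carried 0 to 2 UMIs of the 5 scored genes. Their summed fetal-like genes had a median of 3438 CPM (2322 to 5496), all above the median of the depth-matched cells. Edn1 was at 963 CPM (781 to 1175) in them, Krt7 at 159 (90.8 to 258), F3 at 119 (61.6 to 208) and Cldn4 at 109 (54.5 to 195), while S100a6 was at 278 (185 to 402) and Fabp1 at 2372 (2081 to 2693). Lgals3 and Anxa5 had no UMI in these 5 cells, an interval of 0 to 36.6 CPM.

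Depp1, a gene of fasting and stress response, was at 220 CPM (176 to 272) in the 14 chosen cells of cluster 9, with UMIs in 10 of them and 20.2% in the top cell, and at 35.0 (23.1 to 51.0) in the 41 other chosen cells and 33.3 (28.3 to 39.1) in matched cells. Edn2, which leads the same day 5 clusters 5 and 6 as Depp1, was not called, at a log2 ratio of -0.70 over all chosen cells.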
